A study of Mus musculus with 4 samples.

Results

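The IL-1 family cytokines and receptors described here are 9 genes of the 19465 listed for each library, chosen by symbol: the cytokine genes Il1a, Il1b, Il33 and Il18, the antagonist gene Il1rn, and the receptor genes Il1r1, Il1rap, Il1rl1 and Il1r2. All 9 were found, and all 9 passed the filter on low counts in every comparison. They were measured by Visium spatial transcriptomics in 4 sections of formalin-fixed, paraffin-embedded mouse heart, 1 library per section. Visium counts transcripts as unique molecular identifiers (UMIs) on a hexagonal grid of spots, each of which can hold several cells.

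All mice were wild type FVB/NJ animals immunized with a peptide of MyHCα, the alpha heavy chain of cardiac myosin, and all received antibodies against PD-1 and CTLA-4, which are immune checkpoint inhibitors (ICIs). In the antibody group (2 sections) an IL-17A neutralizing antibody was added to the ICIs. In the ICI-alone group (2 sections), for which the labels record myocarditis, it was not. Immunization and both ICIs are therefore common to the groups, and no section without them was analysed here. The labels give each group a batch 1 and a batch 2, used below as replicate numbers. They do not say which animal each section is from, and p-values thus cover only the variation among the 4 sections.

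IL-1α and IL-1β signal through the receptor IL-1R1 together with the accessory chain IL-1RAcP, encoded by Il1rap. The product of Il1rn occupies IL-1R1 without signalling, and IL-1R2 is a decoy that binds IL-1 but lacks a signalling domain. IL-33, an alarmin held in the nucleus of stromal and epithelial cells, signals through ST2, the product of Il1rl1, with the same accessory chain, whereas IL-18 has its own receptor pair. In heart muscle, IL-1 is known as a driver of inflammation and of depressed contractility.

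The antibody sections held 2604 and 2585 spots under tissue, against 2503 and 3052 in the ICI-alone sections. Total UMIs were 47882576 and 33005923 with the antibody and 73167202 and 66255242 with ICIs alone, and median UMIs per spot were 18342 and 12298 against 27912 and 20622, so depth was lower in both antibody sections. Of the barcodes, 2040 to 2239 were shared between any pair of sections, all at the same grid place, as the slide design gives. The atrial gene Myl7 was at 535 CPM (counts of UMIs scaled to a common library size with TMM normalization) in antibody replicate 2 and at 0.960 CPM or less in the other 3 sections. TMM factors were fitted anew for each comparison, so the CPM of the same spots can differ between comparisons. Sums over gene lists are in CPM scaled by library size alone. For 5 atrial genes they were 417 and 7705 CPM with the antibody, against 3063 and 5460 CPM with ICIs alone. Spots with over 1% of UMIs on these 5 genes numbered 2 and 172, against 63 and 536, so that rule did not follow Myl7. Cardiomyocyte markers were abundant in all 4 sections: 9 genes summed to 78509 and 64554 CPM with the antibody and to 48588 and 29622 CPM with ICIs alone.

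Il1a (ENSMUSG00000027399, chromosome 2, 129299609 to 129310186), Il1b (ENSMUSG00000027398, chromosome 2, 129364569 to 129371164) and Il1rn (ENSMUSG00000026981, chromosome 2, 24336860 to 24351491) share a chromosome. Il33 (ENSMUSG00000024810) lies on chromosome 19, 29925113 to 29960718, Il18 (ENSMUSG00000039217) on chromosome 9, 50554700 to 50581841, and Il1rap (ENSMUSG00000022514) on chromosome 16, 26581509 to 26730128. All positions are those of GRCm38.p6, the assembly of mm10. Il1a, Il1b and Il1rn were the 3 genes with the most similar maps over the heart. The map of Il33 differed between the groups in the main test given further on, but not under every setting. The 150 bases before a listed transcription start are printed below for Il1a, Il1b, Il1rn and Il33. They come from RefSeq (GRCm38.p6), are written in the direction of transcription, and carry in capitals each match to TATAAA, the TATA box, or to TGANTCA, the core of an AP-1 site, searched on both strands. Il1rn has 3 listed starts and Il33 has 2, and the start shown is the one with a match.
Il1a, chr2:129309973-129310122, minus strand: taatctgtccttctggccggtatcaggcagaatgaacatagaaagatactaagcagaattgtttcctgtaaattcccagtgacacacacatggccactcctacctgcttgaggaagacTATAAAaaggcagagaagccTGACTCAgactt
Il1b, chr2:129371140-129371289, minus strand: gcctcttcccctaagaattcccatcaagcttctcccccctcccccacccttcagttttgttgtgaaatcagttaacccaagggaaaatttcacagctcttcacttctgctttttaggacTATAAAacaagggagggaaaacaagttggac
Il1rn, chr2:24336710-24336859, plus strand: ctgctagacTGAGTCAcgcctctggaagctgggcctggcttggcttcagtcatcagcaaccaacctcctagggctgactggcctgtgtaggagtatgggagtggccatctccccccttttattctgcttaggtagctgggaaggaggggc
Il33, chr19:29945640-29945789, plus strand: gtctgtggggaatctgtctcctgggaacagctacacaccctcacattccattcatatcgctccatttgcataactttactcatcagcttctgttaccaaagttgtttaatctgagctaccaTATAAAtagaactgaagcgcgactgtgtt
TATAAA began 32 bases before the start of Il1a, 31 before that of Il1b and 29 before this start of Il33, and TGANTCA began 12 bases before the start of Il1a and 141 before that of Il1rn. The motifs did not overlap. Of the 14 windows listed for the 9 genes, 3 held TATAAA and 2 held TGANTCA. Among all 32851 windows of the same length, 7.57% held TATAAA and 4.24% held TGANTCA. A match describes the letters and is no evidence of a bound factor.

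The first comparison asked how neutralizing IL-17A during ICI treatment affected IL-1 family transcripts summed over each heart section. The decoy receptor gene Il1r2, the signalling receptor genes Il1r1 and Il1rap, and the cytokine genes Il33 and Il18 fell. None of the 9 rose. Il1b and Il1rn were lower in both antibody sections but did not pass the test, and Il1a and Il1rl1 had overlapping groups. By the edgeR quasi-likelihood test with Benjamini-Hochberg adjustment at 0.05, 5 of 9 members fell, where 8.81% of the 18817 genes tested fell and 11.8% passed in either direction. The median log2 fold change was -1.01 over the members and 0.09 over all genes tested. A negative value means lower with the antibody throughout. Sums over a section cannot tell fewer cells of a type from less RNA per cell.

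**Figure D1:**
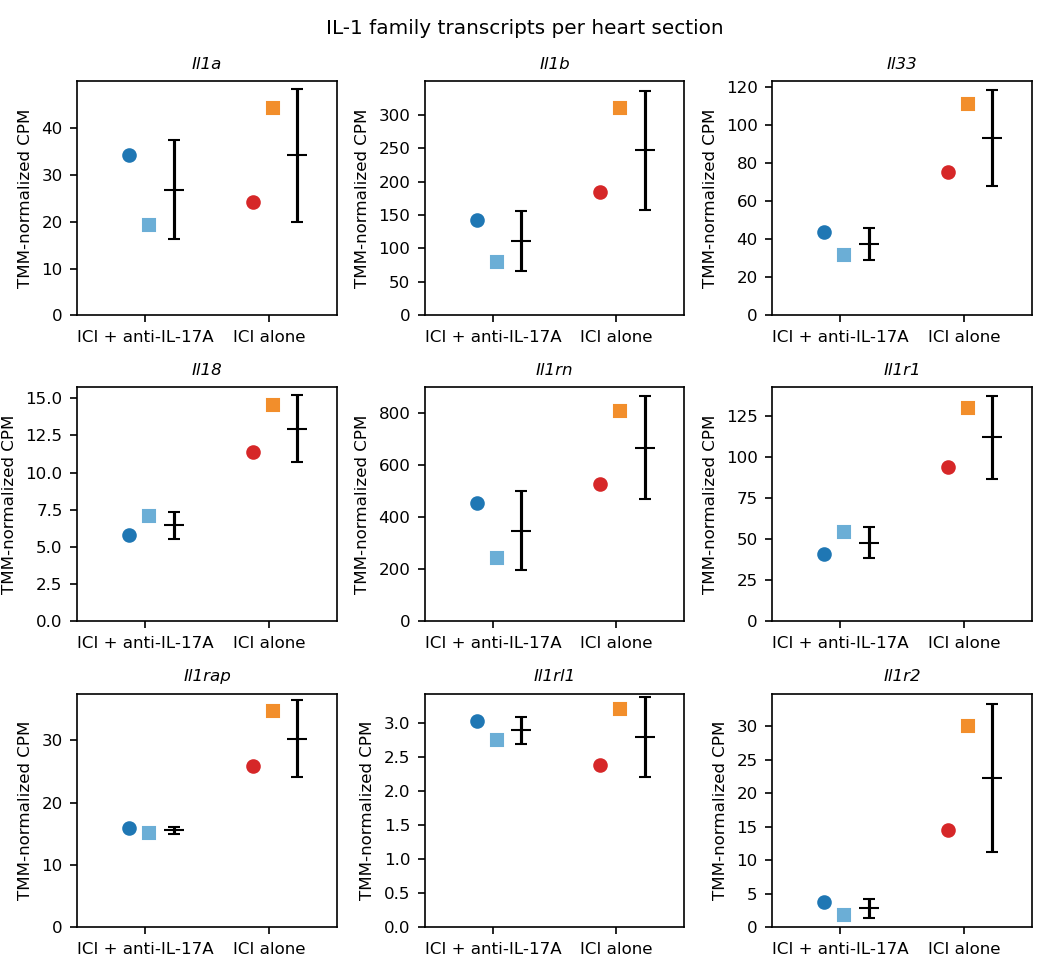
TMM-normalized CPM of the 9 genes, 1 panel per gene, with a linear axis from 0. Circles are replicate 1 and squares replicate 2, the ICI + anti-IL-17A sections at the left and the ICI-alone sections at the right, and black bars are the group mean ± SD (n = 2 sections). The groups are apart for 7 genes, and overlap for Il1a and Il1rl1.

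Il1b, the inducible IL-1 agonist gene, was at 143 and 79.7 CPM in the antibody sections, against 184 and 310 CPM with ICIs alone. The groups did not overlap, but the gap within batch 1 was small: the log2 difference was -0.36 in batch 1 and -1.96 in batch 2. The fitted log2 fold change was -1.15 ± 0.34 (SE) with an edgeR adjusted p of 0.0690. Il1b passed with DESeq2 (adjusted p = 0.00394) and without ICI-alone replicate 1 (edgeR adjusted p = 0.000283). Il1a, the IL-1 agonist gene whose product is already active as a precursor, stood at 34.3 and 19.4 CPM with the antibody, against 24.2 and 44.2 CPM with ICIs alone. It was higher with the antibody in batch 1 and lower in batch 2, and the edgeR adjusted p was 0.470 (log2 fold change -0.35 ± 0.34). Without ICI-alone replicate 1 Il1a passed, with a log2 fold change of -0.78 and an edgeR adjusted p of 0.0225.

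Il33 stood at 43.7 and 31.8 CPM in the antibody sections, against 75.6 and 111 CPM in the ICI-alone sections. Both antibody sections lay below both ICI-alone sections, and the fall was 2.47-fold (log2 fold change -1.30 ± 0.23, edgeR adjusted p = 0.0249). Il18, a cytokine gene whose product needs caspase-1 cleavage, was at 5.82 and 7.08 CPM with the antibody, against 11.4 and 14.6 CPM with ICIs alone. Its fall was close to the same in both batches, with log2 differences of -0.96 and -1.04 (fitted -1.01 ± 0.20, edgeR adjusted p = 0.0304).

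Il1rn, which encodes the IL-1 receptor antagonist, was at 455 and 241 CPM with the antibody, against 527 and 805 CPM with ICIs alone. The sections of batch 1 were near each other and those of batch 2 far apart, and the difference did not pass (log2 fold change -0.94 ± 0.36, edgeR adjusted p = 0.116). It passed with DESeq2 (adjusted p = 0.0198) and without ICI-alone replicate 1 (edgeR adjusted p = 0.00597).

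Among the receptor genes, Il1r2 differed most. It was at 3.80 and 1.85 CPM in the antibody sections, against 14.5 and 30.1 CPM in the ICI-alone sections. The highest antibody section was well below the lowest ICI-alone section, and the fall was 7.80-fold (log2 fold change -2.96 ± 0.44, edgeR adjusted p = 0.0217). These levels rest on 182 and 65 UMIs with the antibody and on 971 and 2045 UMIs with ICIs alone. Il1r1 was at 41.3 and 54.6 CPM with the antibody, against 94.3 and 130 CPM with ICIs alone. Its log2 difference was -1.19 in batch 1 and -1.25 in batch 2, and the fitted value -1.23 ± 0.21 (edgeR adjusted p = 0.0240). Il1rap was at 15.9 and 15.2 CPM with the antibody, against 25.9 and 34.7 CPM with ICIs alone. The antibody sections were close to each other and below both ICI-alone sections (log2 fold change -0.96 ± 0.18, edgeR adjusted p = 0.0254). Il1rl1 was low in every section, at 3.03 and 2.76 CPM with the antibody, against 2.38 and 3.21 CPM with ICIs alone. The antibody values lay between the ICI-alone values, and the log2 fold change was 0.05 ± 0.25 (edgeR adjusted p = 0.888).

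Of the 5 calls, 4 depended on single sections. Without antibody replicate 1, Il1r1 (adjusted p = 0.0822), Il1rap (0.0713) and Il18 (0.116) no longer passed the edgeR test, and 329 genes passed in all. Without antibody replicate 2, Il33 (adjusted p = 0.0652), Il1rap (0.0665) and Il18 (0.0576) no longer passed it, and 515 genes passed in all. Il1r2 passed under all 12 alternatives, each section left out included. Without ICI-alone replicate 1, 8 of the 9 members passed and 4479 genes in all. With the batch as a block the same count of 5 members passed, and 3830 genes in all.

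Groups that do not overlap were common in these sections. Antibody and ICI-alone values were apart for 7 of the 9 members, all lower with the antibody, while 68.2% of all genes tested had groups apart and 32.2% were lower with the antibody and apart.

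Markers of several cell types moved with the groups. Of 10 neutrophil markers, none at 0 UMIs in any section, 6 fell by the edgeR test at adjusted p under 0.05, and their summed level was 60.1 and 53.8 CPM with the antibody, against 345 and 579 CPM with ICIs alone. Of 12 macrophage markers 8 fell (1058 and 1685 CPM against 2154 and 2769 CPM), and of 10 fibroblast markers 5 fell (2408 and 2530 CPM against 6133 and 14920 CPM), again with none at 0. Most of the fibroblast sum with ICIs alone came from 2 collagen genes, Col1a1 (2758 and 7542 CPM) and Col1a2 (1898 and 4820 CPM). With the antibody these were at 413 and 403 CPM and at 540 and 525 CPM. The median log2 fold change of the fibroblast list was -0.84, so the sum does not measure fibroblast number. None of the 8 T cell markers passed (111 and 121 CPM against 94.6 and 93.9 CPM), and 5 of 7 epicardial markers rose (27.4 and 30.3 CPM against 10.1 and 19.0 CPM). The part of these cell types in the IL-1 family differences was not tested. Depth was examined only by thinning all sections to the same total of 33005923 UMIs, after which 5 members still passed.

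Other genes of the pathway are read against the same background, 8.81% of genes tested falling and 3.03% rising. Of 21 genes that carry the signal inside the cell, only Myd88, the adaptor of IL-1 receptors, passed the edgeR test, at 40.8 and 50.9 CPM with the antibody, against 73.3 and 70.3 CPM with ICIs alone (log2 fold change -0.65 ± 0.15, adjusted p = 0.0420). The list's median log2 fold change was -0.18. Of 16 genes of inflammasomes and cytokine processing tested, 4 fell and 0 rose, with a median of -0.45. These were Pycard (log2 fold change -0.95), the inflammasome adaptor, Casp8 (-0.71), a caspase, Nlrp3 (-1.0), the sensor, and P2rx7 (-0.72), a receptor for extracellular ATP.

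Of 25 genes known to be induced by IL-1, 12 fell and 0 rose, with a median log2 fold change of -0.88. The neutrophil chemokine gene Cxcl5 was at 36.0 and 49.9 CPM with the antibody, against 258 and 366 CPM with ICIs alone (log2 fold change -2.86 ± 0.26, edgeR adjusted p = 0.0175). Cxcl1 (-2.68), another ligand of the same receptor, Mmp3 (-3.81), a matrix-degrading enzyme, and Tnfaip6 (-1.73), a hyaluronan-binding protein, fell as well. Many of these genes are also induced by IL-17A itself. Of 12 genes tied to IL-33 and type 2 responses, Ccl17 rose (log2 fold change 2.22 ± 0.35, edgeR adjusted p = 0.0225) and Chil3, a chitinase-like protein, fell (-2.52 ± 0.53, adjusted p = 0.0329). The other 10 did not pass, and the median was 0.71. Of 10 genes tied to IL-18 and interferon-γ responses, 3 rose and 0 fell, with a median of 0.66: Ifng at 17.4 and 17.4 CPM with the antibody, against 8.75 and 7.75 CPM with ICIs alone (log2 fold change 1.07 ± 0.16, edgeR adjusted p = 0.0219), the chemokine gene Cxcl9 (1.14) and the transcription factor gene Tbx21 (0.96). These lists overlap in content with other pathways, and their counts describe the genes and not pathway activity.

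On chromosome 1, IL-1 family receptor genes lie side by side, in the order Il1r2, Il1r1, Il1rl2, Il1rl1, Il18r1 and Il18rap, from 40084692 to 40551707. Il1r2 (ENSMUSG00000026073, 40084692 to 40125230) and Il1r1 (ENSMUSG00000026072, 40222480 to 40316201) fell, and so did Il1rl2, the IL-36 receptor gene, at 5.30 and 4.66 CPM with the antibody, against 9.80 and 14.2 CPM with ICIs alone (log2 fold change -1.27 ± 0.23, edgeR adjusted p = 0.0250). The next genes did not pass. Il1rl1 (ENSMUSG00000026069, 40404864 to 40465418) had a log2 fold change of 0.05. The IL-18 receptor genes Il18r1 and Il18rap had 0.58 (edgeR adjusted p = 0.142) and -0.52 (adjusted p = 0.177).

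The next comparisons asked where in the heart the transcripts lay. Spots were scored by a panel of 20 leukocyte genes, none of them a member, after thinning each spot to 5000 UMIs. Leukocyte-rich spots, with 27 or more panel UMIs, made up 4.60% and 3.38% of scored spots in the antibody sections, against 11.2% and 18.7% in the ICI-alone sections. They held 115 and 86 spots with the antibody and 278 and 569 with ICIs alone, and 105, 37, 11 and 4 shallower spots were left out in the same order of sections.

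Il1rn, Il1a, Il1b, Il1r2, Il1rap and Il18 were higher in leukocyte-rich spots than in the other spots of the same section, in 4 of 4 sections each. By the edgeR quasi-likelihood test with the section as a block, 6 of 9 members were higher, where 23.1% of the 15704 genes tested were higher and 46.1% passed in either direction. Il1rn was at 2072 and 862 CPM in leukocyte-rich spots of the antibody sections and at 1855 and 1826 CPM in those of the ICI-alone sections. In the other spots it was at 374 and 228 CPM with the antibody and at 315 and 546 CPM with ICIs alone. The leukocyte-rich spots were thus above the other spots in each section, by 3.34-fold to 5.89-fold (log2 fold change 2.17 ± 0.20, edgeR adjusted p = 0.000145). Il1a (2.05 ± 0.26), Il1b (1.54 ± 0.21), Il1r2 (1.33 ± 0.28), Il1rap (0.88 ± 0.16) and Il18 (0.73 ± 0.13) followed on the log2 scale. Il1r1 (0.10), Il1rl1 (0.51) and Il33 (0.55) did not pass.

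**Figure D2:**
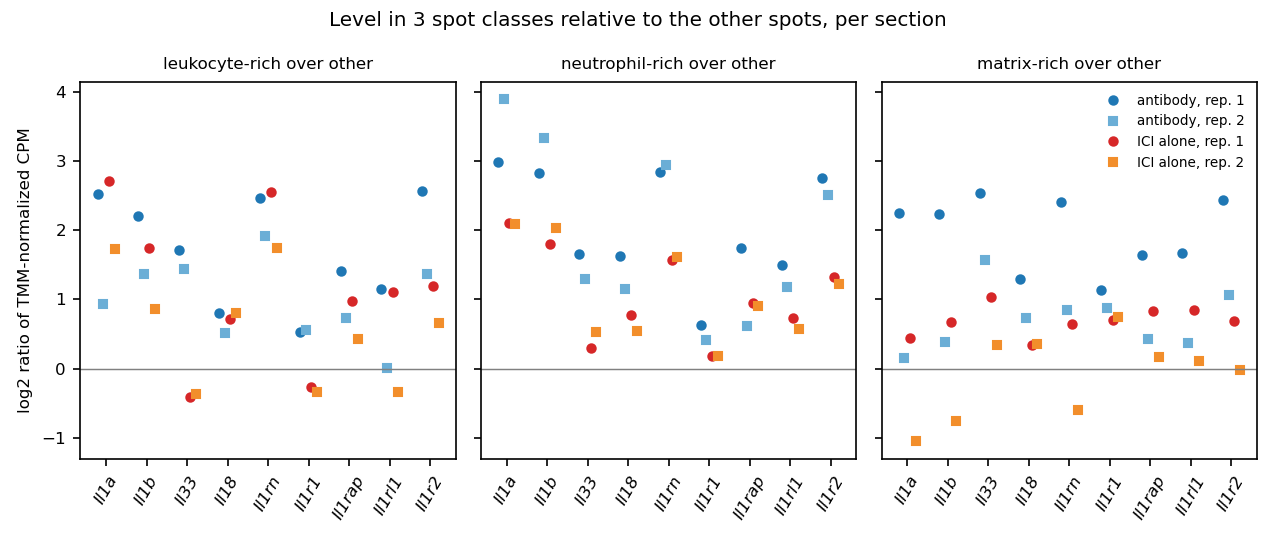
log2 ratio of TMM-normalized CPM in leukocyte-rich, neutrophil-rich and matrix-rich spots over the other spots of the same section, for the 9 genes. Each symbol is 1 section, blue for ICI + anti-IL-17A and red or orange for ICI alone. In the left panel Il33 is above 0 in both antibody sections and below 0 in both ICI-alone sections.

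Leukocyte-rich spots held 29.9% and 17.0% of all Il1rn UMIs in the antibody sections, against 51.2% and 51.7% in the ICI-alone sections. Of all UMIs they held 5.56% and 4.48% with the antibody, against 13.7% and 22.2% with ICIs alone. Il1rn was therefore concentrated there in every section, and both shares were higher in the ICI-alone sections, which had more such spots.

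Within leukocyte-rich spots, none of the 9 members differed between the treatments by edgeR. No gene of 12821 did (0.0%), with 2290 genes (17.9%) at an unadjusted p under 0.05, and DESeq2 called 263 genes and 0 members. An unadjusted p under 0.05 was reached by 2 members, Il1r2 and Il18. Il1rn was at 2369 and 930 CPM there with the antibody, against 1881 and 2014 CPM with ICIs alone, a log2 fold change of -0.24 ± 0.47. Il1b was at 650.0 and 221 CPM, against 478 and 550 CPM. For both genes antibody replicate 1 was the highest section and antibody replicate 2 the lowest, so the groups overlapped. Il1r2 was at 20.7 and 5.16 CPM with the antibody, against 29.3 and 48.7 CPM with ICIs alone, groups that did not overlap (log2 fold change -1.46 ± 0.53, edgeR adjusted p = 0.246). Leukocyte-rich spots did not hold the same cells in both groups. Neutrophil markers summed there to 283 and 136 CPM with the antibody, against 582 and 743 CPM with ICIs alone. T cell markers went the other way, with 458 and 525 CPM against 162 and 145 CPM. The part of these cells in the comparison was not tested.

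In the other spots the same 5 members as in the whole section fell, where 7.57% of the 18359 genes tested fell and 10.1% passed in either direction. These spots were not alike between the groups. The leukocyte panel summed there to 1487 and 2127 CPM with the antibody, against 2578 and 3003 CPM with ICIs alone. Neutrophil markers summed to 47.1 and 49.8 CPM, against 307 and 532 CPM. T cell markers went the other way, with 90.9 and 102 CPM against 83.9 and 79.3 CPM. The part of these cells in the falls was not tested. The edgeR log2 fold changes were -3.08 for Il1r2 (adjusted p = 0.0230), -1.56 for Il33 (0.0240), -1.34 for Il1r1 (0.0262), -0.93 for Il1rap (0.0379) and -0.87 for Il18 (0.0442). With the batch as a block 5 members passed as well, and 4393 genes in all. None of these 5 passed without antibody replicate 1, when 7 genes passed in all, and 2 members passed without antibody replicate 2. The count was 3 without ICI-alone replicate 2 and 3 with scaling by library size alone.

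**Figure D3:**
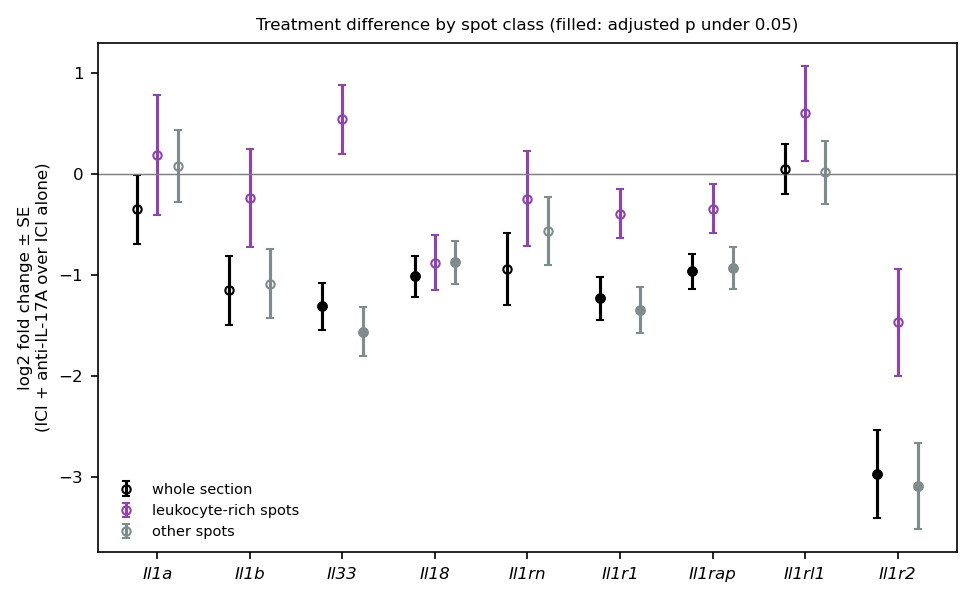
log2 fold change ± SE (ICI + anti-IL-17A over ICI alone) of the 9 genes in whole sections (black), leukocyte-rich spots (purple) and the other spots (grey), with filled symbols where the edgeR adjusted p is under 0.05. Filled symbols occur for Il33, Il18, Il1r1, Il1rap and Il1r2 in whole sections and other spots, and for no gene in leukocyte-rich spots.

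The next test asked whether the relation of leukocyte-rich to other spots differed between the treatments, and Il33 was the one member that passed it. With the antibody it was at 127 and 82.8 CPM in leukocyte-rich spots and at 40.9 and 31.2 CPM in the other spots. With ICIs alone it was at 63.0 and 97.4 CPM in leukocyte-rich spots and at 85.3 and 129 CPM in the other spots. It was thus higher in leukocyte-rich spots in both antibody sections, 3.10-fold and 2.66-fold, and lower there in both ICI-alone sections, at 0.739 and 0.756 of the other spots. The edgeR interaction was 1.95 ± 0.21 on the log2 scale (adjusted p = 0.0320), in a test that called 12 of 17925 genes (0.0669%). It did not pass without ICI-alone replicate 1 (adjusted p = 0.372) or 2 (0.0830), or with spots ranked within each section (0.185). In all it passed under 6 of 12 alternatives, and its size was between 1.52 and 2.43 over them. Il1r1 had the same arrangement, at 1.37 and 1.45 times the other spots with the antibody and at 0.820 and 0.767 times with ICIs alone, but its interaction of 0.83 ± 0.21 did not pass (edgeR adjusted p = 0.181). It passed under 3 of 12 alternatives, without antibody replicate 1 (adjusted p = 0.0443), without antibody replicate 2 (0.0245) and with the top 5% of spots (0.000224). Il1r2 did not pass either (1.32 ± 0.36, edgeR adjusted p = 0.199), and passed under 2 of 12, without antibody replicate 2 (0.00214) and with the top 5% of spots (0.00208).

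Marker lists in the same spots are given beside Il33, which stromal cells are known to express. The 10 fibroblast markers summed to 4751 and 4169 CPM in leukocyte-rich spots and to 2261 and 2448 CPM in the other spots with the antibody, and to 8118 and 19444 CPM and 5818 and 13629 CPM with ICIs alone, a sum that was higher in leukocyte-rich spots in all 4 sections. Most of the list went the other way: by edgeR with the section as a block 2 of the 10 were higher in leukocyte-rich spots and 6 lower, with a median log2 fold change of -0.53. The 7 epicardial markers summed to 98.9 and 42.1 CPM in leukocyte-rich spots and to 23.3 and 29.5 CPM in the other spots with the antibody, and to 11.2 and 21.0 CPM and 9.93 and 18.5 CPM with ICIs alone. By edgeR 0 of these 7 were higher in leukocyte-rich spots and 0 lower, with a median log2 fold change of 0.69. The 8 endothelial markers summed, with the antibody, to 690 and 640 CPM in leukocyte-rich spots and 1591 and 1364 CPM in the others. With ICIs alone they summed to 791 and 729 CPM and to 1101 and 1037 CPM. By edgeR all 8 were lower in leukocyte-rich spots, and of 6 smooth muscle markers 4 were lower and 0 higher. The 8 T cell markers summed to 458 and 525 CPM in leukocyte-rich spots with the antibody, against 162 and 145 CPM with ICIs alone. In the other spots they summed to 90.9 and 102 CPM, against 83.9 and 79.3 CPM. Only 1 of these 8 lay outside the panel that defined the spots, so their level there partly follows from the selection. No marker of these lists was at 0 UMIs in a section, and their part in the Il33 result was not tested.

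**Figure D4:**
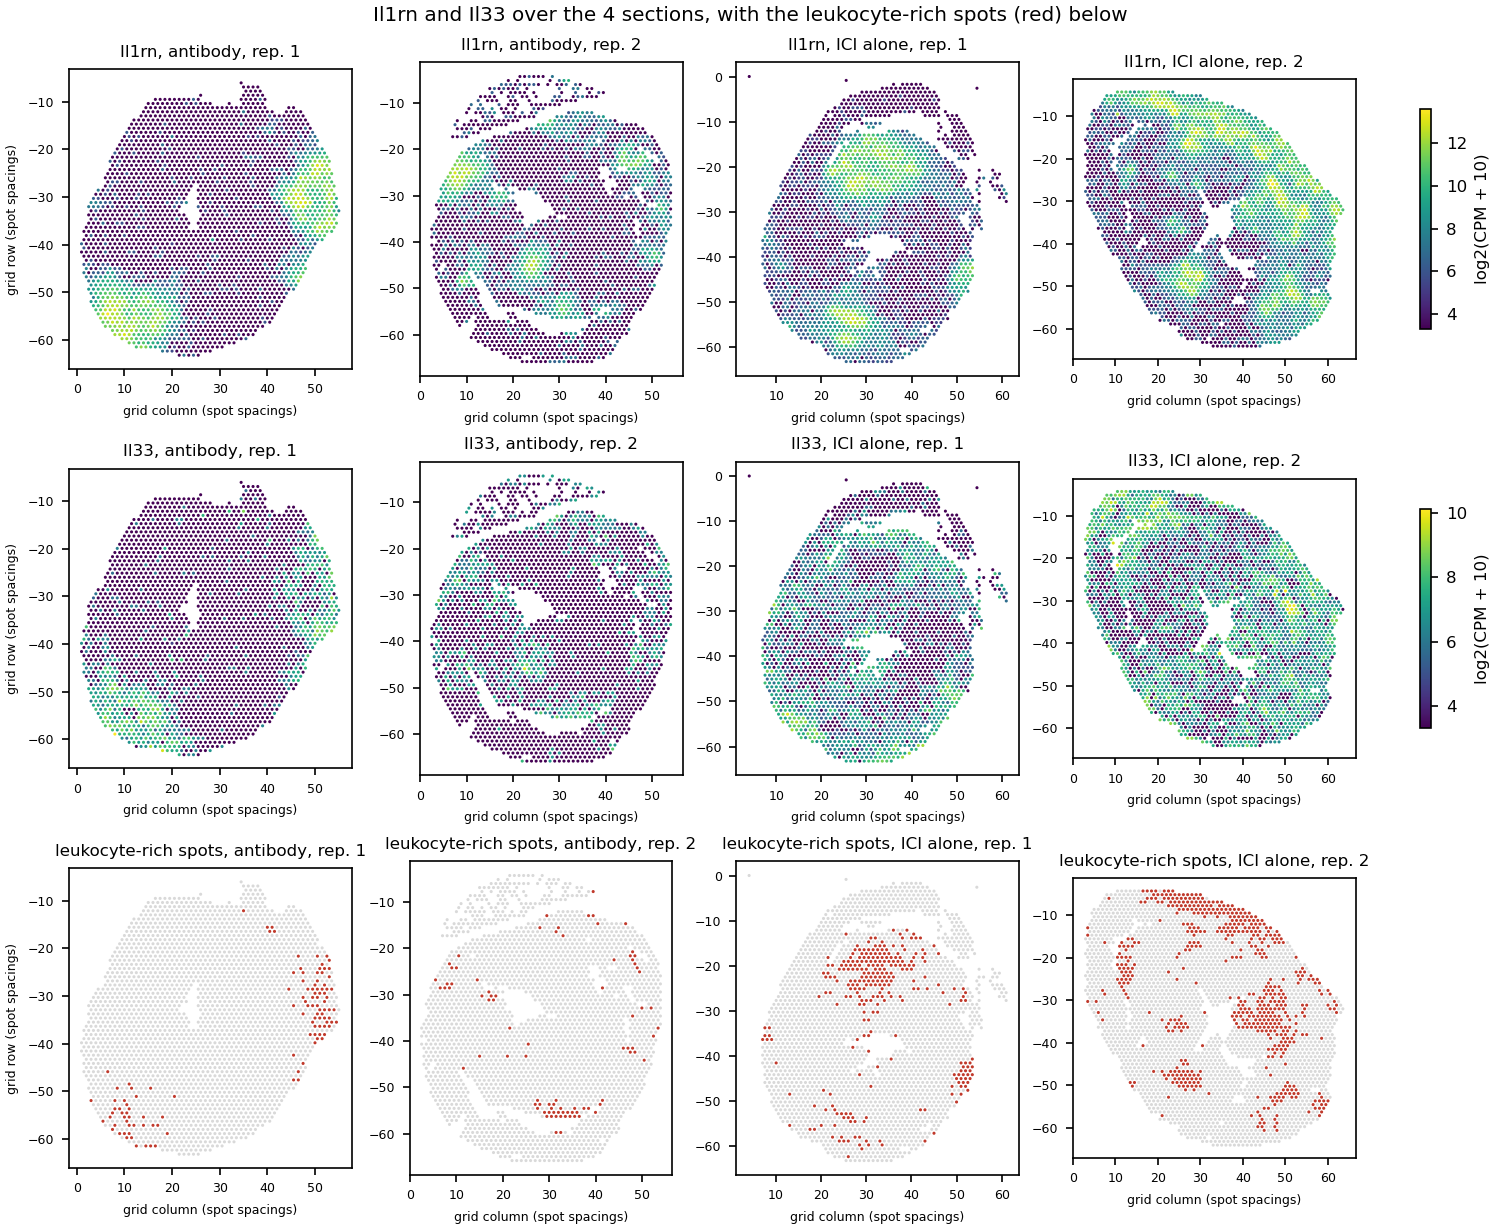
log2(CPM + 10) of Il1rn (upper row) and Il33 (middle row) in each spot of the 4 sections, ICI + anti-IL-17A at the left and ICI alone at the right, on axes in spot spacings, with leukocyte-rich spots in red in the lower row. Il1rn is bright in and near the zones of leukocyte-rich spots in all 4 sections, whereas Il33 is spread over much of the ICI-alone sections.

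Distance from the nearest leukocyte-rich spot, in grid steps, showed the reach of each transcript in CPM scaled by library size alone. Il1rn was at 2459 and 980 CPM inside leukocyte-rich spots and at 7.03 and 23.4 CPM at 6 or more steps in the antibody sections. In the ICI-alone sections it was at 1799 and 1924 CPM inside and at 15.8 and 43.4 CPM at 6 or more steps. The decline was steep in all 4 sections. Il1b was at 675 and 233 CPM inside and at 5.17 and 8.39 CPM at 6 or more steps with the antibody, and at 457 and 525 CPM inside and at 10.4 and 35.5 CPM far away with ICIs alone. In antibody replicate 2 both Il1b (277 CPM) and Il1a (73.8 CPM, against 43.5 CPM inside) were highest 1 step outside the leukocyte-rich spots.

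Il1r1 changed little with distance by comparison. It was at 74.4 and 96.5 CPM inside leukocyte-rich spots and at 26.0 and 40.0 CPM at 6 or more steps with the antibody, and at 81.6 and 121 CPM inside and 44.4 and 105 CPM far away with ICIs alone. In both ICI-alone sections it was highest 2 steps outside, at 111 and 148 CPM. Il33 was highest inside in the antibody sections, at 159 and 97.2 CPM, and was at 5.1 and 11.7 CPM at 6 or more steps. In the ICI-alone sections it was highest 1 step outside, at 91.5 and 138 CPM, and was still at 29.2 and 90.5 CPM at 6 or more steps. Il33 therefore declined by far more over the antibody sections than over the ICI-alone sections, and spots this far away numbered 1539 and 1093 with the antibody, against 562 and 219 with ICIs alone. Distances were not tested, since neighbouring spots share a section.

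**Figure D5:**
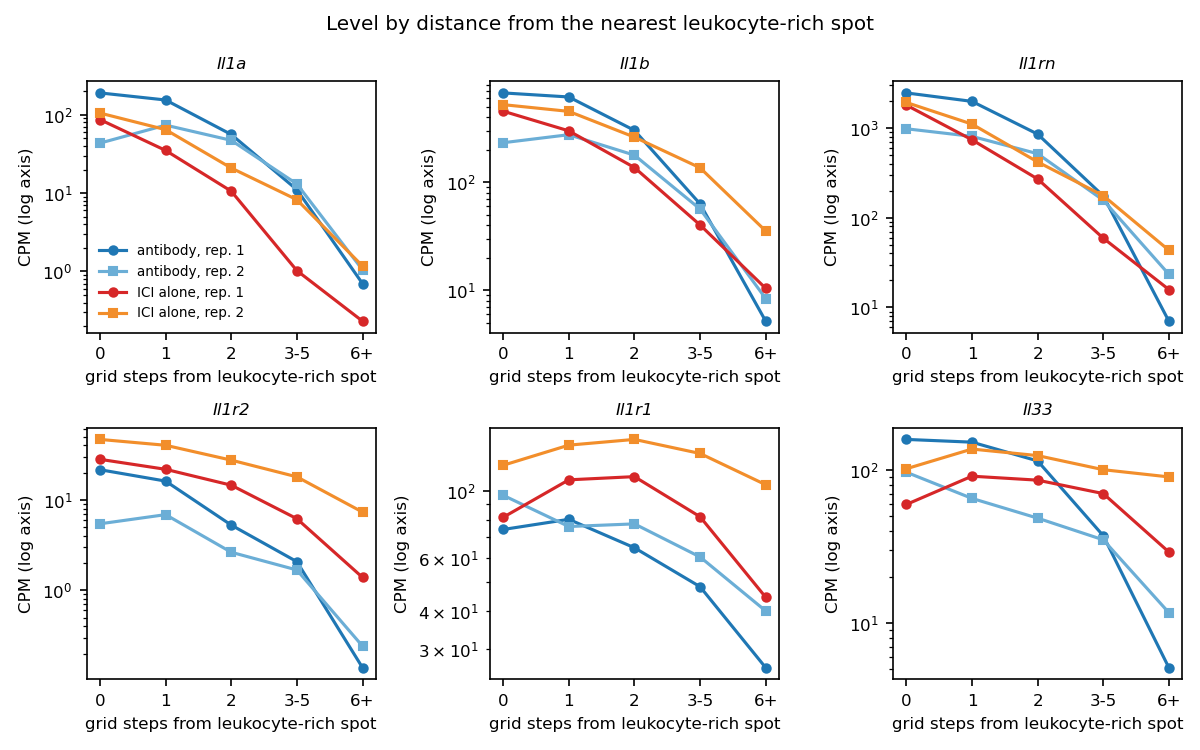
CPM on a log axis against distance in grid steps from the nearest leukocyte-rich spot (0 is inside), for 6 genes. Each line is 1 section, blue for ICI + anti-IL-17A and red or orange for ICI alone. Il1rn, Il1b and Il1a drop steeply with distance in all sections, Il1r1 is flatter, and Il33 peaks at 1 step in both ICI-alone sections.

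Neutrophil-rich spots, the top 10% at most of each section by 7 neutrophil genes, held more of nearly all IL-1 family transcripts. By edgeR with the section as a block 8 of 9 members were higher, where 15.0% of the 14924 genes tested were higher and 31.6% passed in either direction. Each was higher in 4 of 4 sections. Il1a was at 196 and 176 CPM in neutrophil-rich spots and 24.7 and 11.8 CPM in the other spots with the antibody, and at 76.9 and 145 CPM and 17.9 and 34.1 CPM with ICIs alone. It stood apart in every section (log2 fold change 2.74 ± 0.31, edgeR adjusted p = 0.00886). Il1b (2.49), Il1rn (2.24), Il1r2 (1.75), Il1rap (1.08), Il18 (0.97), Il1rl1 (0.96) and Il33 (0.93) followed, and Il1r1 (0.35 ± 0.11, adjusted p = 0.0527) did not pass. The class began at 2 panel UMIs of 5000 in both antibody sections, against 5 and 7 in the ICI-alone sections, so it does not mark equal neutrophil content. Nor does it mark neutrophils alone: by edgeR 14 of the 20 leukocyte panel genes were higher there and 0 lower. The leukocyte panel summed to 4479 and 3469 CPM in neutrophil-rich spots with the antibody, and to 4401 and 4625 CPM with ICIs alone. In the other spots it summed to 1534 and 2223 CPM, against 2890 and 3753 CPM. The part of other leukocytes in these differences was not tested. Without antibody replicate 2 only Il1a and Il1b of the members passed, and 103 genes in all.

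Matrix-rich spots, the top 10% of each section by 10 extracellular matrix genes, gave another order. Il33, Il1r1 and Il18 were higher there, 3 of 9 members, where 13.4% of the 14577 genes tested were higher and 29.1% passed in either direction. Il1r1 was at 85.6 and 98.3 CPM in matrix-rich spots and 38.7 and 53.5 CPM in the other spots with the antibody, and at 142 and 208 CPM and 86.7 and 124 CPM with ICIs alone. It was higher in 4 of 4 sections, by a similar factor in each (log2 fold change 0.87 ± 0.11, edgeR adjusted p = 0.0126). Il33 had 1.36 ± 0.34 (adjusted p = 0.0300) and passed under 7 of 10 alternatives. Il18 had 0.66 ± 0.19 (adjusted p = 0.0448), passed under 5 of 10, and did not pass when any 1 of the sections was left out (edgeR adjusted p = 0.0516 to 0.152). Il1rap did not pass here (0.77 ± 0.24, edgeR adjusted p = 0.0543), although it did under 6 of 10 alternatives. Il1rn was higher in matrix-rich spots in 3 sections and lower in ICI-alone replicate 2, at 577 against 869 CPM, and did not pass (0.81 ± 0.46, adjusted p = 0.207). The class began at 28 panel UMIs of 5000 in both antibody sections, against 106 and 243 in the ICI-alone sections. It therefore does not mark equal matrix content. The matrix panel summed to 10181 and 7887 CPM in matrix-rich spots with the antibody, and to 20327 CPM in the other spots of ICI-alone replicate 2. Matrix-rich spots were also richer in leukocyte genes: by edgeR 15 of the 20 leukocyte panel genes were higher there and 0 lower. Without ICI-alone replicate 1 no gene passed the edgeR test, and without antibody replicate 2 only 1 member did.

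At the tissue edge, within 2 grid steps of a place without tissue, no member passed against the interior by edgeR, where 4 of 14076 genes (0.0284%) passed and 1655 (11.8%) had an unadjusted p under 0.05. DESeq2 called 154 genes there and 1 member, Il33 (adjusted p = 0.00629). Il33 was higher at the edge in 4 of 4 sections, at 79.3 and 38.3 CPM against 32.8 and 27.7 CPM in the interior with the antibody, and at 101 and 134 CPM against 51.9 and 101 CPM with ICIs alone (edgeR log2 fold change 0.78 ± 0.16, adjusted p = 0.306). Il1r1 was also higher at the edge in 4 of 4 sections (edgeR log2 fold change 0.28 ± 0.11, adjusted p = 0.410). Il33 and Il1r1 were the 2 members with an unadjusted p under 0.05. Edge spots made up 20.9% and 56.0% of the spots compared in the antibody sections, against 38.8% and 38.5% in the ICI-alone sections. In antibody replicate 2 the 5 atrial genes summed to 17836 CPM at the edge, against 911 CPM in the interior. The edge class is therefore not the same tissue in each section.

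Genes with the most similar maps were sought for each member over tiles of 4 grid rows by 8 columns, with a median of 16 spots and 160 to 198 tiles per section, as the mean over sections of Pearson's r of log2(CPM + 10). Neighbouring tiles share a library and are not independent, so r is a description. For Il1b the closest of 8754 genes was Il1rn (mean r 0.93), followed by Acod1 (0.93), which makes itaconate in activated macrophages, and Plaur (0.93), the urokinase receptor gene. For Il1rn they were Acod1 (0.95), Lgals3 (0.95), which encodes galectin-3, and Spp1 (0.95), the osteopontin gene. For Il1a they were Cxcl3 (0.94), a neutrophil chemokine gene, Slc7a11 (0.92), which encodes a cystine transporter, and AA467197 (0.92).

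The maps of Il1r1 and Il33 ran mostly with matrix genes, and that of Il1rap with cytoskeletal genes. Il1r1 was closest to Col3a1 (mean r 0.76), a fibrillar collagen gene, Igfbp7 (0.72) and Bgn (0.70), the biglycan gene. Il33 was closest to Col3a1 (0.74), Mt2 (0.73), a metallothionein gene, and Emilin1 (0.71). Il1rap was closest to Myh9 (0.74), Cfl1 (0.73) and Vim (0.73), genes of the cytoskeleton. Its mean r was nearly as high with Il1rn (0.73) and Il1b (0.72), but 0.52 with Il33 and 0.41 with Il1r1. Il1r1 and Il33 had a mean r of 0.68 with each other. The r of Il33 with Il1b was 0.90 and 0.70 in the antibody sections, against 0.45 and 0.38 in the ICI-alone sections. Il1r2, Il1rl1 and Il18 were under 10 CPM in a section and were not compared.

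The authors' deposited table gives Moran's I, a measure of how clustered a transcript is over the spots of a section, for 19219 to 19239 genes per section. By that table Il1rn ranked 4 and 13 in the antibody sections, against 18 and 32 in the ICI-alone sections, with Moran's I of 0.893 and 0.703 against 0.852 and 0.786. In the authors' deposited table Il1b ranked 31 and 38 with the antibody, against 75 and 106 with ICIs alone, and Il33 ranked 322 and 599, against 1018 and 1045. Il1rl1 ranked 3546 and 7823 with the antibody, against 7549 and 7196 with ICIs alone, in the authors' deposited table. Ranks depend on the depth of a section and on all other genes in it, so they do not measure a change.

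Ratios of UMIs between 2 members can be set side by side across sections, although not read as molar ratios, since capture differs between genes. Whole sections held 4.17 and 4.12 Il1b UMIs per Il1a UMI with the antibody, against 7.61 and 7.01 with ICIs alone. Per Il1b UMI they held 3.18 and 3.03 Il1rn UMIs with the antibody, against 2.86 and 2.60 with ICIs alone. Per Il1r2 UMI they held 10.9 and 29.5 Il1r1 UMIs with the antibody, against 6.49 and 4.33 with ICIs alone. The groups did not overlap in any of the 3 ratios, and with 2 sections against 2 an exact two-sided permutation test cannot go below p = 0.333, the value each gave. In leukocyte-rich spots the Il1b per Il1a ratio was 3.55 and 5.36 with the antibody, against 5.26 and 4.99 with ICIs alone, and the groups overlapped.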

How the data were processed

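Each of the 4 sections is 1 Visium library, grouped by the labels' treatment field, 2 sections per group. The authors deposited unnormalized UMI counts for every gene in every tissue-covered spot. Space Ranger 2.1.0 is named per the file headers, and mm10 and Seurat 5.1.0 per the submitters' processing notes. No label or file header used here names the probe set. Grid positions were deposited as well. The authors' deposited Moran's I is a score per gene and section, with an adjusted p-value, and the deposited UMI totals equalled the matrix sums for every gene listed. Images and their deposited scale factors were not analysed here.

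The members and gene lists were chosen with earlier results of these data known. For each section, UMIs were added up over all spots or over a spot class. The sums passed filterByExpr and TMM scaling in edgeR 4.0.16 (with limma 3.58.1 and R 4.3.3) and were compared by its quasi-likelihood test, adjusted over all genes at 0.05. A standard error is the absolute log2 fold change over the root of F. Panel genes were left out of tests between spot classes. Thresholds of the leukocyte class weight the sections equally. Library totals ran from 33005923 to 73167202 UMIs, and counting error is largest for members with few UMIs, Il1rl1 (97 to 218 per section) and Il1r2 in the antibody sections.

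Besides all members, at most 4 genes per list with the smallest p in the whole-section comparison and the 3 genes with the most similar maps per member are named; other markers and neighbouring genes were picked with their values in view. The labels' batch number could pair sections across groups: deviations of same-batch sections had a correlation of 0.175 over 18817 genes, and a fit with the batch as a block was run as well. Further settings were DESeq2 1.42.0, scaling by its size factors or by library size alone, no filter, each section left out, other spot thresholds and depths, and leaving out spots under 1000 UMIs or with over 1% of UMIs on 5 atrial genes. The fits were also run on simulated data with less variation between sections than was fitted here, so that run does not measure their error rates. Scoring, tiles and figures used Python 3.11.15, pandas 2.3.3, numpy 2.4.6, scipy 1.17.1 and matplotlib 3.10.9.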

Additional observations from a re-analysis of the deposited data

Results flagged for a closer look

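Il33 had a difference between leukocyte-rich and other spots that differed between the treatments, by a test of the difference itself. It was higher in leukocyte-rich spots in 2 of 2 antibody sections and lower there in 2 of 2 ICI-alone sections, and the edgeR interaction was 1.95 on the log2 scale (adjusted p = 0.0320). The adjusted p ranged from 3.83e-15 to 0.372 over the alternatives, and the test did not pass with DESeq2's size factors in edgeR (0.0960), with spots thinned to 2000 UMIs (0.0735) or with the top 20% of spots (0.348).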

How the results depend on the processing

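No member changed direction past the threshold under any alternative. In the whole section 5 members passed under each alternative except DESeq2 (7) and leaving out sections (2 to 8). The count of all genes passing in the whole section was 3830 with the batch as a replicate block, a pairing that changed no member's call in the comparisons where it was fitted, 1480 without spots over 1% atrial UMIs, and 329 to 4479 when 1 section was left out. In leukocyte-rich spots the treatment count was 263 with DESeq2, 55 with the top 5% of spots and 0 to 57 when 1 section was left out. In the other spots it was 2862 with DESeq2, 4393 with the replicate block and 7 to 3289 when 1 section was left out. The interaction count of 12 became 62 with DESeq2, 23 with library size alone, 0 with DESeq2's size factors in edgeR, 75 without the filter, 541 and 0 with the top 5% and 20% of spots, 0 with ranking within sections, 2 with thinning to 2000 UMIs and 0 to 1415 when 1 section was left out. For neutrophil-rich spots the count was 3138 with the top 5% and 103 to 5074 when 1 section was left out, and for matrix-rich spots 0 to 4359. For edge spots it was 154 with DESeq2, 7 without the filter, 24 for spots within 1 step and 0 to 3 when 1 section was left out. The causes were not tested.

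Scaling by library size alone moved the median of all genes by 0.22 on the log2 scale in leukocyte-rich over other spots, by 0.21 in matrix-rich spots, and by 0.09 in the whole section. The split of higher and lower genes became 840 and 1029 in the whole section, against 571 and 1658 with TMM, and 5715 and 2624 in leukocyte-rich over other spots, against 3627 and 3611. The 6 members called in leukocyte-rich over other spots passed under all 12 alternatives, and so did Il1r2 in the whole section. The low UMI counts of Il1rl1 limit what could be detected for it.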
